A study of Homo sapiens with 12 samples.

Results

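Decapping is the step at which the 5′ cap is taken off an mRNA, after which the exposed end can be degraded from the 5′ side. DCP2 is the catalytic subunit of the main decapping complex, a Nudix hydrolase. DCP1A and DCP1B are paralogous cofactors that bind it, EDC3, EDC4 and PNRC1 enhance or help to assemble the complex, the helicase DDX6, PATL1 and the eIF4E-binding protein EIF4ENIF1 link translational repression to decapping, and XRN1 is the exonuclease that degrades the decapped body. The mRNAs of these 10 genes are described here, out of 23615 gene symbols in the tables. The list was chosen with earlier results of these data known, and its rows were then taken by symbol. All 10 were found, and all 10 passed the filter of a mean of at least 1 FPKM in each comparison.

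HEK293T is an established line of human embryonic kidney origin with the SV40 large T antigen. Cells were given 2 μM of CP25, named in the labels as a macrocyclic compound that inhibits DCP2, or an equal volume of vehicle, for 18 h. Actinomycin D, a transcription blocker, was then applied at 5 μg/mL, and poly(A) RNA was collected after 0 h or 2 h. Each of the 4 groups (vehicle 0 h, CP25 0 h, vehicle 2 h, CP25 2 h) had 3 libraries, 12 in all. Every 2 h library, vehicle included, carries actinomycin D, and no library was collected at 2 h without it. Nothing in the labels says whether the 3 libraries of a group came from separate cultures, so p-values measure only the spread between libraries.

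Values are FPKM (fragments per kilobase of transcript per 1000000 mapped fragments), which can be set side by side between genes. The steps in low values gave an estimated depth, in units of 1000000 fragments, of 13.2 to 22.8 at 0 h and 22.1 to 29.2 at 2 h. Of the cell type lists, 7 of 7 HEK293T markers reached 1 FPKM in a group mean, and 0 of 6 haematopoietic, 0 of 6 keratinised or glandular epithelial and 0 of 3 endothelial markers did. The third CP25 2 h library held 12.6% of its summed FPKM in the small nucleolar RNA gene SNORD63. This gene was chosen here after its values were seen. The highest gene of the other 11 libraries held 0.965% to 1.60%. Because FPKM is per length, these are not shares of fragments. The median FPKM of tested genes in that CP25 library was 10.1, within the 2 h range of 9.82 to 10.1. The 2 times were deposited in separate tables that may be scaled separately, so levels at 2 h are set against 0 h as a description, with no test.

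DCP2 is shown first by the stretch of its coding sequence that encodes the Nudix box, the catalytic motif of this enzyme family, because this is the site that makes DCP2 the cap-cleaving subunit. The capitals mark the motif's 23 codons, codons 129 to 151 of 420, in its GENCODE transcript. In GRCh38 the stretch lies on the plus strand of chromosome 5, in exon 4 of 11 (112992711 to 112992770) and exon 5 (113001084 to 113001116), with an intron between. The motif's amino acid pattern was searched in a wide form, with I, L, V, F, M or A allowed at its hydrophobic places. In that form it was found in the coding sequences of 11 of 18376 genes searched.
DCP2 Nudix box: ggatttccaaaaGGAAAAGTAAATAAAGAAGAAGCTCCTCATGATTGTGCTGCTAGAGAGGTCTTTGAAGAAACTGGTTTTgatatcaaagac

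DCP2 mRNA was measured at 23.1, 22.2 and 22.3 FPKM in vehicle and at 22.1, 21.5 and 21.8 FPKM in CP25 at 0 h. All 3 CP25 libraries lay below all 3 vehicle libraries, by a small margin. At 2 h it was 21.7, 23.7 and 20.6 FPKM in vehicle and 21.9, 24.3 and 18.6 FPKM in CP25, where the groups overlapped fully and the third CP25 library, the one with the high SNORD63 share, was the lowest of the 12. The part of that library's composition in this value was not tested. By limma on log2(FPKM + 1), the CP25 effect on DCP2 was -0.04 (95% interval -0.16 to 0.07) at 0 h and -0.03 (-0.28 to 0.22) at 2 h, with an adjusted p of 1 at both times. Its level lay at percentile 67 of tested genes in vehicle at 0 h.

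**Figure D1:**
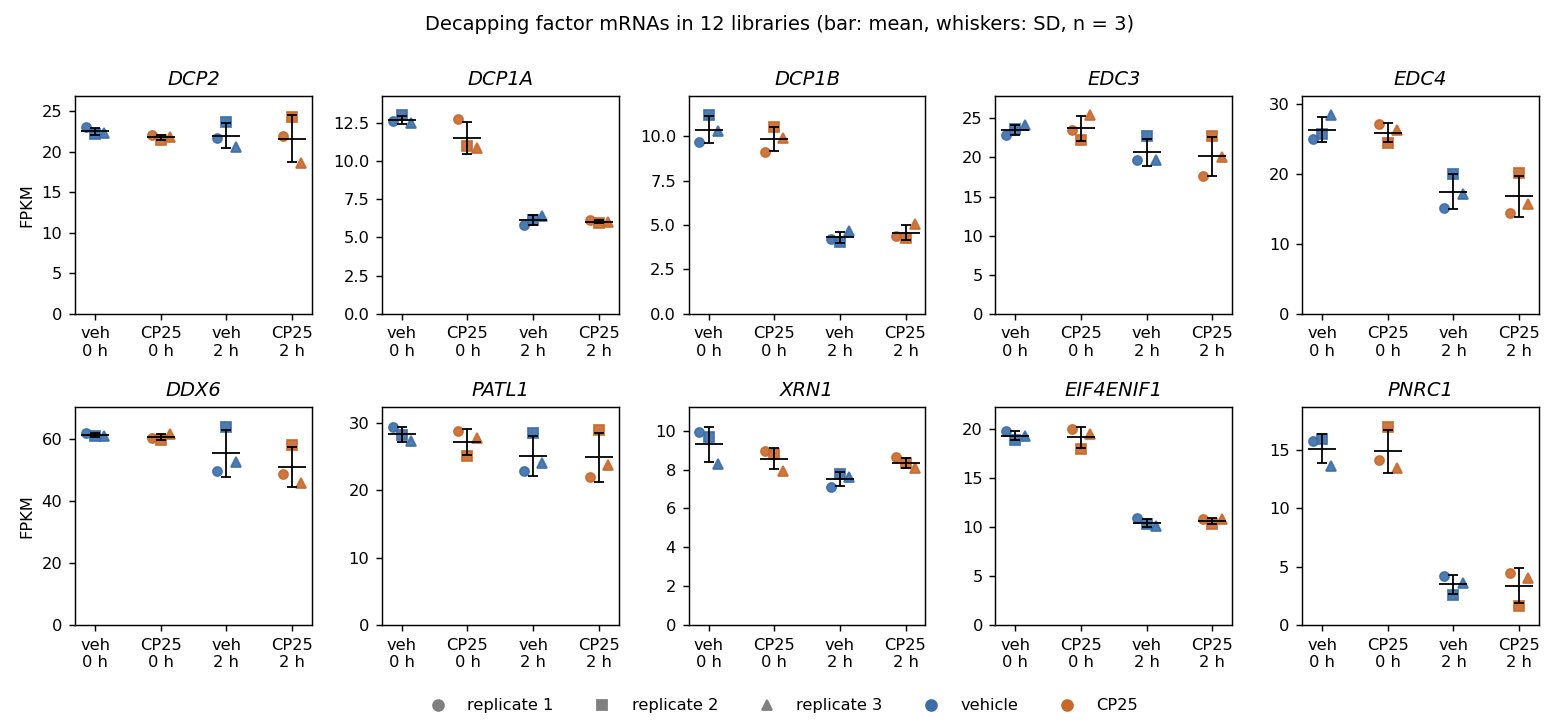
FPKM of the 10 mRNAs in every library, 1 panel per gene with its own axis from 0. Symbols mark replicate numbers, colours mark vehicle and CP25, and bars with whiskers are the mean and SD of 3 libraries. PNRC1, DCP1A, DCP1B, EIF4ENIF1 and EDC4 are lower in every 2 h than in every 0 h library, and vehicle and CP25 lie close together within each time. The share of all genes so separated by time was not computed.

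The mRNA levels of the members ranged widely. In vehicle at 0 h the order by mean FPKM was DDX6 (61.3), PATL1 (28.3), EDC4 (26.3), EDC3 (23.6), DCP2 (22.5), EIF4ENIF1 (19.3), PNRC1 (15.1), DCP1A (12.7), DCP1B (10.4) and XRN1 (9.30). The library ranges of the neighbours PATL1 and EDC4, EDC3 and DCP2, and DCP1B and XRN1 overlapped, and the others were separate. In vehicle at 2 h XRN1 stood 7th (7.50 FPKM), above DCP1A, and PNRC1 stood last (3.48 FPKM), with a range that overlapped that of DCP1B. The order of the 10 was the same in CP25 as in vehicle at each time.

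The level after 2 h of transcription block is given as the percentage of the 0 h mean, called here the remaining level. FPKM is relative to all mapped fragments of a library. A remaining level is thus relative to the other RNA and is not the fraction of molecules left. The members ran from near the median gene to well below it, in vehicle and in CP25 alike. Over the 12151 genes with a ratio, the median was 86.6% in vehicle and 87.9% in CP25. The medians of the 10 members were 73.1% and 73.8%, and those of 31 other decay factors 94.2% and 92.6%. In bulk RNA, fewer cells and less RNA per cell cannot be told apart, and poly(A) selection counts only RNA with a tail.

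PNRC1, a coactivator that brings decapping to the nucleolus, had the lowest remaining level of the 10. Its FPKM was 15.8, 15.9 and 13.7 in vehicle and 14.2, 17.0 and 13.5 in CP25 at 0 h. At 2 h it was 4.20, 2.62 and 3.62 in vehicle and 4.49, 1.64 and 4.04 in CP25. Every 2 h library lay far below every 0 h library, and the second library was the lowest of its group at 2 h in both treatments. The remaining level was 23.0% in vehicle and 22.7% in CP25, at percentiles 2.03 and 1.91 of all genes. At the estimated depths the 2 h values rest on about 88 to 265 fragments per library. The lower end is the fewest of any member at that time, and DCP1B had about 215 to 260.

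The DCP1 paralogs both had low remaining levels, at percentiles 11.1 (DCP1A) and 7.76 (DCP1B) of all genes in vehicle and 13.1 and 9.90 in CP25. DCP1A was at 12.6, 13.0 and 12.5 FPKM in vehicle and 12.7, 11.0 and 10.9 in CP25 at 0 h. At 2 h it was at 5.83, 6.17 and 6.43 FPKM in vehicle and 6.15, 5.95 and 5.99 in CP25. In each treatment the 0 h and 2 h libraries were far apart, and 48.3% and 52.3% remained. DCP1B was at 9.66, 11.2 and 10.3 FPKM in vehicle and 9.11, 10.5 and 9.89 in CP25 at 0 h, and the second library was the highest in both. At 2 h DCP1B was at 4.22, 4.05 and 4.66 FPKM in vehicle and 4.36, 4.29 and 5.06 in CP25, which left 41.6% and 46.5%, again with no overlap between the times.

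DCP1A and DCP1B fill the same place beside DCP2, so their split was followed as the share of DCP1A in the sum of both FPKM. That share was 55.1% ± 1.46 (SD, n = 3) in vehicle and 53.9% ± 3.83 in CP25 at 0 h. At 2 h it was 58.8% ± 1.36 and 56.9% ± 2.39. The difference, CP25 minus vehicle, was -1.21 points at 0 h (exact two-sided permutation p = 0.7) and -1.86 points at 2 h (exact permutation p = 0.6), where 3 against 3 libraries cannot go below 0.1. Over both times it was -1.53 points (exact permutation within times, p = 0.29, smallest possible 0.005), within the spread between libraries.

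EIF4ENIF1, also called 4E-T, carries eIF4E to sites of repression and decay. It was at 19.8, 18.9 and 19.3 FPKM in vehicle and 20.0, 18.0 and 19.6 in CP25 at 0 h. At 2 h it was at 10.9, 10.3 and 10.1 FPKM in vehicle and 10.8, 10.3 and 10.8 in CP25. The libraries within a group lay close together and those of the 2 times far apart. The remaining level was 54.0% in vehicle and 55.5% in CP25, at percentiles 14.8 and 15.4 of all genes. EDC4, the scaffold of the decapping complex, was at 24.9, 25.7 and 28.3 FPKM in vehicle and 27.1, 24.3 and 26.2 in CP25 at 0 h. At 2 h EDC4 was at 15.2, 20.0 and 17.1 FPKM in vehicle and 14.5, 20.1 and 15.7 in CP25. EDC4 had remaining levels of 66.3% and 64.8%, at percentiles 25.3 and 23.2 of all genes. Its second library was the highest at 2 h in both treatments, and still lay below every 0 h library.

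In FPKM as deposited, the other 5 mRNAs stayed near their 0 h level or near the median gene. The relative level of DCP2 at 2 h was 97.6% of that at 0 h with vehicle and 99.1% with CP25, at percentiles 64.9 and 64.6. DDX6, an RNA helicase and the most abundant member, was at 62.1, 60.9 and 60.9 FPKM in vehicle and 60.4, 59.9 and 61.8 in CP25 at 0 h. At 2 h DDX6 was at 49.8, 64.1 and 52.5 FPKM in vehicle and 48.7, 58.3 and 45.9 in CP25. The second library was the highest in both treatments, above all 0 h libraries in vehicle, and 90.5% and 84.0% remained. EDC3, a scaffold that binds DCP1, DCP2 and DDX6, was at 22.9, 23.6 and 24.2 FPKM in vehicle and 23.6, 22.3 and 25.4 in CP25 at 0 h. At 2 h EDC3 was at 19.6, 22.7 and 19.7 FPKM in vehicle and 17.7, 22.7 and 20.0 in CP25, which left 87.7% and 84.8%. The times did not overlap in vehicle and did in CP25.

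PATL1 bridges the LSM1-7 ring, DDX6 and the decapping complex. It was at 29.4, 28.2 and 27.3 FPKM in vehicle and 28.8, 25.1 and 27.7 in CP25 at 0 h. At 2 h PATL1 was at 22.9, 28.5 and 24.0 FPKM in vehicle and 22.0, 28.96 and 23.8 in CP25. The times overlapped in both treatments through the high second library, and 88.8% and 91.5% remained.

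**Figure D2:**
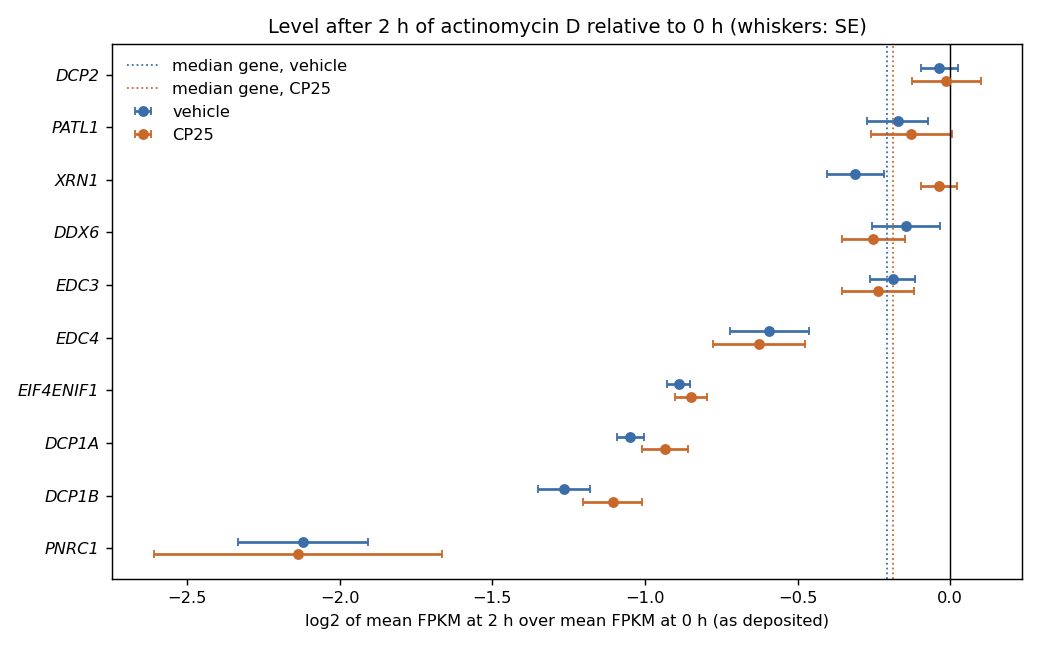
Log2 of the mean FPKM at 2 h over the mean at 0 h for each mRNA, with SE from the 3 libraries at each time, in vehicle and CP25. Dotted lines are the medians of 12151 genes and the solid line is no change. PNRC1, DCP1B, DCP1A, EIF4ENIF1 and EDC4 lie to the left of the median gene in both treatments, and DCP2 lies to its right.

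For 5 of the 10 the direction was the same under every scaling tried. Dividing each library by its median FPKM moved the median log2 ratio of all genes from -0.21 to 0.17 in vehicle and from -0.19 to 0.17 in CP25, and quantile normalization over the 12 libraries moved it to 0.06 and 0.07. DCP1A, DCP1B, EDC4, EIF4ENIF1 and PNRC1 stayed below their 0 h level in both treatments under both scalings. DCP2, EDC3, DDX6, PATL1 and XRN1 turned to above it with median scaling, DCP2 to 127% in both treatments. With quantile normalization DCP2 (110% and 111%) and XRN1 (112% and 132%) turned, and EDC3, DDX6 and PATL1 did not. For these 5, no direction is given. The members that kept their direction were those with the lowest ratios as deposited. The share of all genes that kept theirs was not computed, so the count describes these members only.

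A ratio to DCP2 within the same library cancels any scale factor of that library. PNRC1 was at 0.672 ± 0.0536 of DCP2 (SD, n = 3) at 0 h and 0.160 ± 0.0438 at 2 h in vehicle, and at 0.684 ± 0.095 and 0.163 ± 0.0831 in CP25. DCP1B was at 0.461 ± 0.0421 and 0.197 ± 0.0276 of DCP2 in vehicle. EIF4ENIF1 was at 0.859 ± 0.00556 and 0.477 ± 0.0367 in vehicle. The ratio to DCP2 was lower in all 2 h than in all 0 h libraries for 8 of 9 members in vehicle, with DDX6 the exception, and for 6 of 9 in CP25, with EDC3, PATL1 and XRN1 the exceptions. Over 12182 genes the same held for 41.1% in vehicle and 35.7% in CP25. It was higher at 2 h for 0 of 9 in both treatments, against 15.7% and 10.8% of all genes. All 9 ratios share DCP2, whose remaining level was the highest of the members in both treatments (97.6% and 99.1%). The counts are thus partly set by the choice of reference.

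**Figure D3:**
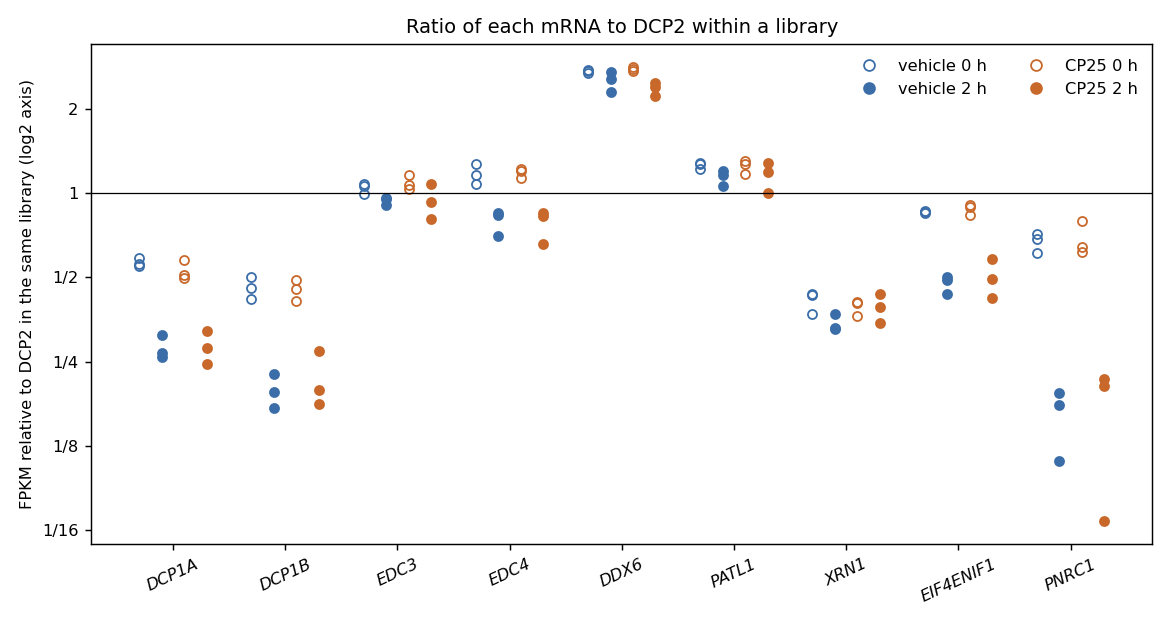
FPKM of each of 9 mRNAs divided by DCP2 in the same library, on a log2 axis, with open points for 0 h and filled points for 2 h (3 libraries each). DCP1A, DCP1B, EDC4, EIF4ENIF1 and PNRC1 have all filled points below all open points in both treatments, and the XRN1 points overlap in CP25.

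XRN1, the exonuclease downstream of decapping, had the CP25 effect of greatest size among the 10 at 2 h. At 0 h it was at 9.95, 9.69 and 8.26 FPKM in vehicle and 8.96, 8.79 and 7.95 in CP25, with overlap. At 2 h it was at 7.10, 7.79 and 7.60 FPKM in vehicle and 8.62, 8.34 and 8.08 in CP25. All 3 CP25 libraries lay above all 3 vehicle libraries there, and 80.6% remained in vehicle against 97.5% in CP25. By limma the CP25 effect on XRN1 was -0.10 (95% interval -0.30 to 0.09) at 0 h and 0.14 (-0.03 to 0.30) at 2 h, both with an adjusted p of 1. The difference between these effects, 2 h minus 0 h, was 0.24 (95% interval 0.0083 to 0.48, limma adjusted p = 1), so it did not pass the test across 12183 genes. Of those genes, 0.772% had an unadjusted p under 0.05 in this direction, and among the 10 members XRN1 alone did. That unadjusted p was at or above 0.05 with median centring, with quantile normalization and in 8 of the 12 fits that left out 1 library, so the exclusion of 0 rests on the setting. With the replicate number as a block, the unadjusted limma p was 0.0068. In that fit 10.5% of all genes had an unadjusted p under 0.05.

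With the replicate number as a block, no member was called either. DDX6 was lower in CP25 in 3 of 3 same-numbered pairs at 2 h (log2 effect -0.12, limma adjusted p = 0.716 with the block), and XRN1 was higher in all 3 (0.14, adjusted p = 0.716). DCP1B was also higher in 3 of 3 pairs at 2 h. At 0 h DCP2, DCP1B and XRN1 were lower in 3 of 3. The share of all genes with 3 pairs in 1 direction was not computed. For the difference between times the block gave an adjusted p of 0.317 for XRN1 and 0.429 for DCP1B (0.14). An unadjusted p under 0.05 with the block was reached by 0 of 10 members at 0 h, 2 at 2 h (DDX6 and XRN1), 2 for the difference (DCP1B and XRN1) and 1 for the mean effect (DDX6). Over all genes the shares were 6.93% at 0 h, 6.93% at 2 h, 10.5% for the difference and 4.39% for the mean effect.

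No member passed the test for an effect of CP25. At an adjusted p of 0.05 (limma, Benjamini-Hochberg over all genes tested), 0 of 10 members were called at 0 h, at 2 h, for the difference between times and for the mean effect over both times. The same held for 0 of 31, 0 of 30, 0 of 31 and 0 of 31 other decay factors. Over all genes 0% were called at 0 h, 0.00851% at 2 h (1 of 11745, the small nucleolar RNA gene SNORD76, named after its value was seen), 0% for the difference and 0% for the mean effect. At an unadjusted limma p under 0.05 the counts over all genes were 43 higher and 45 lower in CP25 at 0 h, 45 and 42 at 2 h, 94 above and 59 below zero for the difference, and 25 and 24 for the mean effect. In the authors' deposited tables, 0 genes passed at either time after adjustment, with 117 and 74 at an unadjusted p under 0.05.

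The intervals, from the fits without the replicate block, bound the effects that were not called. Over all genes, an unadjusted limma p under 0.05 was rarer in these fits than with the block (6.93% at 0 h and at 2 h). The intervals may thus be wider than the spread within same-numbered pairs would give. No intervals with the block are given. The mean CP25 effect over both times was -0.04 for DCP2 (95% interval -0.17 to 0.09), -0.08 for DCP1A (-0.18 to 0.03) and 0.01 for EIF4ENIF1 (-0.08 to 0.10) on the log2 scale. PNRC1 had the widest interval of the 10 in each comparison, -0.73 to 0.56 at 2 h and -0.77 to 0.65 for the difference. The median effect of the 10 was -0.03 at 0 h and -0.03 at 2 h, against -0.0036 and 0.0056 over all genes tested. Ranges of CP25 and vehicle did not overlap for 1 of 10 members at 0 h (DCP2, lower in CP25, against 2.85% of all genes lower) and for 0 of 10 in the other direction (1.23%). At 2 h this was so for 1 of 10 (XRN1, higher, against 2.47%) and for 0 of 10 lower (1.75%).

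**Figure D4:**
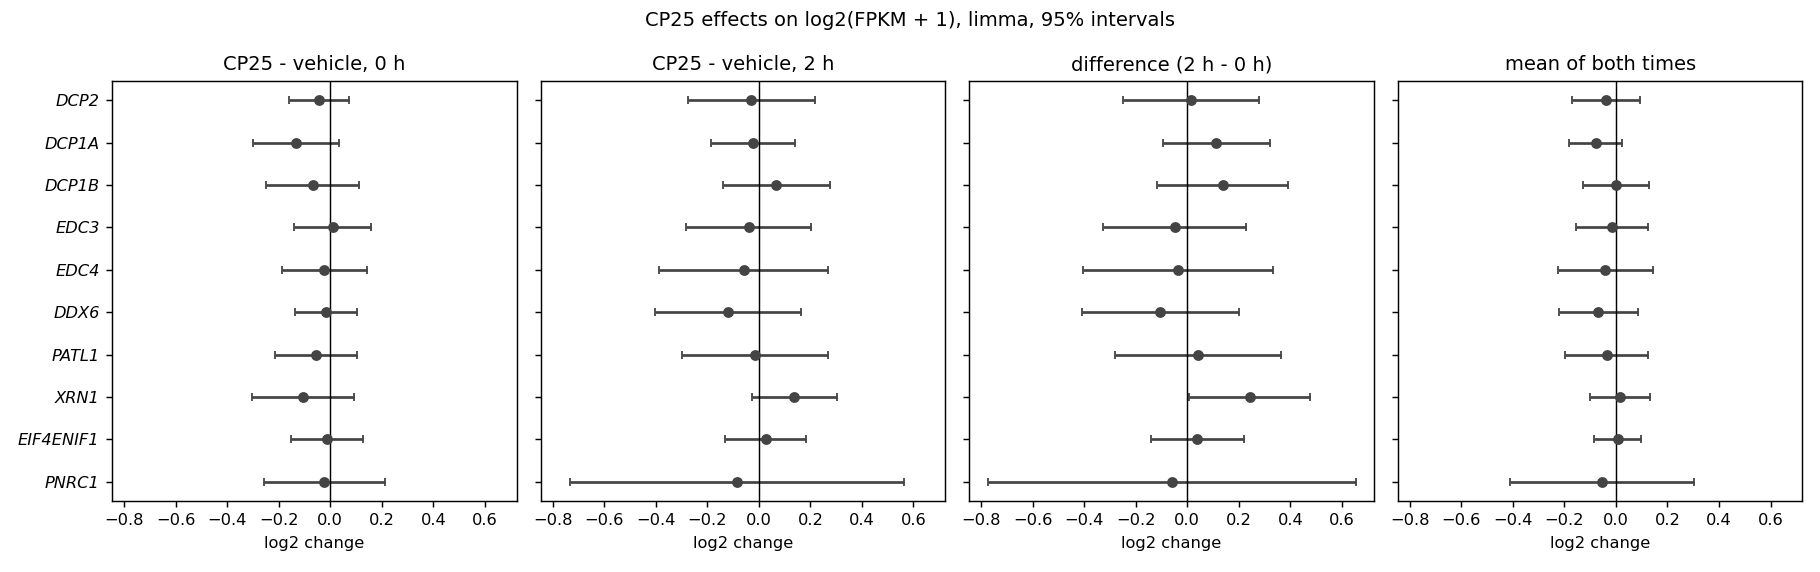
CP25 effect on log2(FPKM + 1) with its 95% limma interval for each mRNA at 0 h, at 2 h, as the difference between the times and as the mean of both. The fits are without the replicate block. Every interval includes 0 except that of XRN1 for the difference, 0.0083 to 0.48, whose adjusted p is 1 and which takes in 0 under median centring, quantile normalization and 8 of 12 omissions of 1 library.

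At 2 h, 7 of 10 members were highest in the same replicate number in both treatments, near the 63.4% of all genes for which this held. DCP2, EDC3, EDC4, DDX6 and PATL1 were highest in the second library of both treatments, 5 of 10 members against 31.9% of all genes. DCP1B and PNRC1 were lowest in it in both, 2 of 10 against 26.7%. The median coefficient of variation of the members was 3.30% in vehicle and 6.45% in CP25 at 0 h, and 7.89% and 12.6% at 2 h, where PNRC1 in CP25 reached 45.2%.

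**Figure D5:**
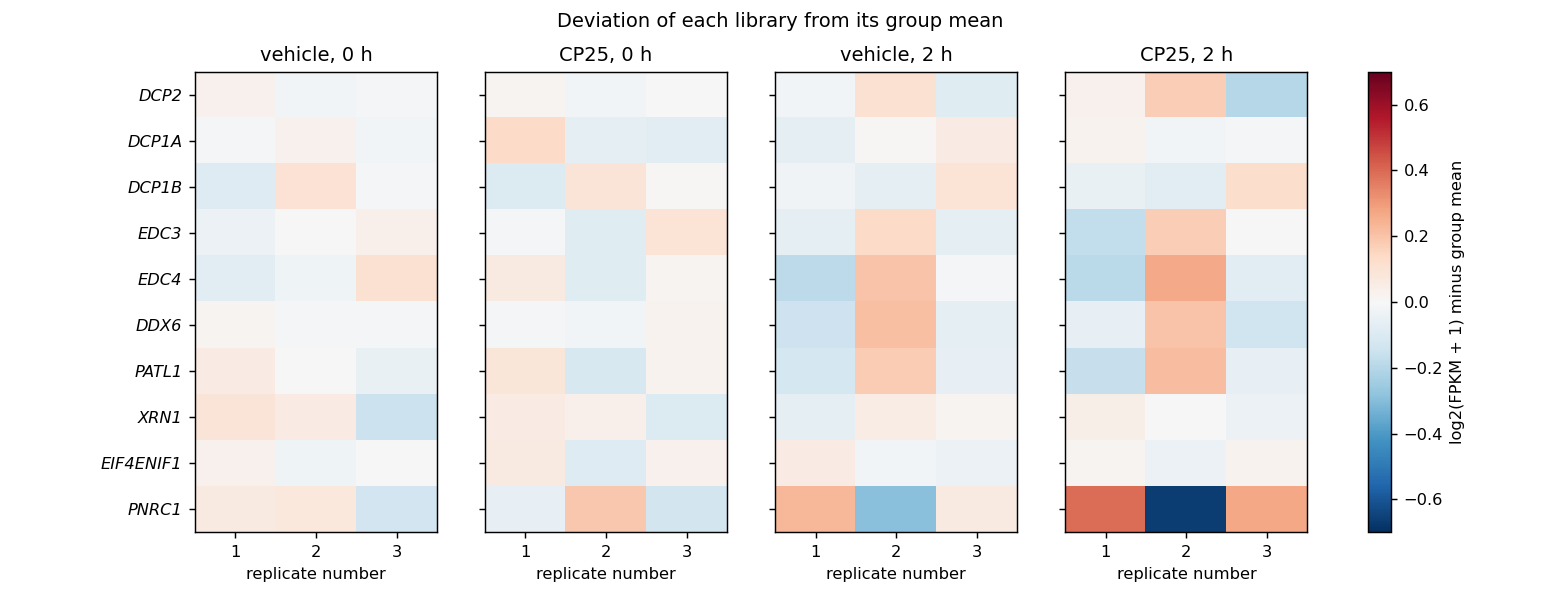
Log2(FPKM + 1) of each mRNA minus its group mean, for replicate numbers 1 to 3 in the 4 groups. At 2 h the second column is raised for 5 mRNAs and lowered for PNRC1 in both treatments.

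Among 31 other mRNA decay factors found in the tables, out of 33 symbols listed (mostly of deadenylation, decapping and 5′ to 3′ decay, with the exosome nuclease EXOSC10 and the scavenger decapping enzyme DCPS), the lowest remaining levels were those of ZFP36L2, an AU-rich element binding protein (15.9% in vehicle, 16.3% in CP25), and TOB1, which recruits deadenylases (20.6% and 22.0%). The highest were those of LSM5 (138% and 136%) and LSM3 (130% and 136%), subunits of the LSM1-7 ring. PNRC1 thus lay among the lowest of the pathway, and no member reached the level of these LSM mRNAs. The 5 genes closest to DCP2 in level over the 12 libraries, by root-mean-square distance in log2(FPKM + 1) among 12178 genes, were PANK2 (0.053), KIAA0020 (0.0757), DPY19L1 (0.0763), ARMCX3 (0.0774) and UNK (0.0827). The closest member was EDC3 (0.131).

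Sequence elements in the 3′ UTRs are shown for PNRC1, the member with the lowest remaining level, for EIF4ENIF1, with low remaining level and little spread, and for DCP2, near its 0 h level as deposited, because all 3 hold the same element. TGTANATA is the DNA form of the motif bound by Pumilio proteins, which recruit deadenylases, and N is any base. It was searched on the transcript strand of 1 GENCODE transcript per gene, and 29.2% of 10720 tested genes hold it. The capitals mark the motif. The PNRC1 sites lie in exon 2 of 2 on the plus strand of chromosome 6 (GRCh38 89084347 to 89084376 and 89084456 to 89084485). The EIF4ENIF1 sites lie in exon 19 of 19 on the minus strand of chromosome 22 (31439507 to 31439536 and 31439468 to 31439497). The DCP2 sites lie in exon 11 of 11 on the plus strand of chromosome 5 (113014313 to 113014342 and 113020792 to 113020821).
PNRC1 site 1: attttatatttTGTAAATActgtataccat
PNRC1 site 2: tgcaggtgtttTGTATATAtacaatggata
EIF4ENIF1 site 1: taaacaactttTGTATATAcatataggata
EIF4ENIF1 site 2: aactatacagcTGTACATAaaagtagctga
DCP2 site 1: tattccagttgTGTAAATAtgtatggaaaa
DCP2 site 2: aagctttttgaTGTAAATAataggttagaa

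The motif did not sort the members by their remaining level. It was present in 5 of 10, with 2 sites in PNRC1, EIF4ENIF1, DCP2 and DDX6 and 1 in PATL1, whereas DCP1A and DCP1B, with remaining levels below those of most genes, hold none. Over all genes the median remaining level was 81.7% with the motif and 89.4% without it in vehicle, and 84.7% and 89.3% in CP25. The AU-rich letters ATTTA occur 24 times in the 7486-base 3′ UTR of DCP2, 14 times in that of XRN1, 10 in DCP1A, 9 in DDX6 and 4 in PATL1, and 0 times in those of PNRC1, EIF4ENIF1, DCP1B, EDC3 and EDC4. ATTTA is thus held by 5 of 10 members, against 71.8% of the genes. Of these 5 only DCP1A had a low remaining level, and of the 5 without it only EDC3 stayed near the median gene. Among all genes the median remaining level differed little by ATTTA in vehicle, 87.3% with it and 86.0% without. In CP25 the medians were 89.5% with ATTTA and 84.3% without it. The low members without it have short 3′ UTRs: 964 bases in PNRC1, 513 in EIF4ENIF1, 355 in EDC4 and 152 in DCP1B. The part of 3′ UTR length in this split was not tested. TATTTAT, which contains ATTTA, is held by 4 of 10 members and 34.2% of the genes. A match is a description of these letters and not a measured site.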

How the data were processed

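Gene-level FPKM values of 12 libraries (4 groups of 3) were used as deposited by the authors, in 1 table per time. Per the submitters' processing notes, the tools include CASAVA 1.8.2, Trimmomatic 0.36 and Bowtie2 2.2.3; which program gave the FPKM is not given in the sources used here. For the authors' deposited comparisons, p-values were adjusted here by the Benjamini-Hochberg method. Members and gene lists were chosen with earlier results of these data known.

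FPKM was analysed as log2(FPKM + 1) for genes whose mean reached 1 FPKM, with limma 3.58.1 in R 4.3.3 (moderated variances with a mean trend, Benjamini-Hochberg adjustment, threshold 0.05), fitted on all genes, 12365 at 0 h, 11745 at 2 h and 12183 over 12 libraries. Fold changes on this scale understate changes of low genes. Named genes were the 10 members, the 2 highest and 2 lowest other decay factors by their 2 h to 0 h ratio (none was called), and the 5 genes nearest DCP2. The scripts were tested on simulated data.

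Depth was estimated from the spacing of low values of 1387 single-transcript genes, scanning 2 to 80 in units of 1000000 fragments. Because multiples of the true depth score alike, the lowest peak within 0.85 of the best score was taken, a rule chosen after the scan was seen. Fragment numbers of single genes use GENCODE lengths and are approximate. Sequences come from GENCODE 29 on GRCh38, whereas the authors' files give no coordinates. Same-numbered libraries were checked for pairing by the correlation of their deviations from group means. It was 0.35, 0.44 and 0.15 at 2 h (paired by the rule of over 0.1 in every pair) and 0.26, -0.01 and 0.12 at 0 h (not paired). The highest correlation between libraries of different number was 0.12 at each time. The rule thus separates matched from unmatched libraries poorly. Alternatives were another pseudocount, no filter, other scalings, a replicate block and leaving out each library.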

Additional observations from a re-analysis of the deposited data

How the results depend on the processing

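No alternative brought a member past an adjusted p of 0.05: over 580 alternative values of member effects (limma, and the authors' deposited p-values), 0 were called, and the lowest adjusted p was 0.317, for the XRN1 difference with the replicate block (0.24). The replicate block changed no call, and the count of genes called with it was 0 at 0 h, 1 at 2 h, 0 for the difference and 0 for the mean effect. Leaving out 1 library in turn gave 0 to 4 genes called at 0 h, 1 to 6 at 2 h, 0 to 3 for the difference and 0 to 3 for the mean effect, none of them a member. The highest counts came without the first CP25 library at 0 h, without the second CP25 library at 2 h (5 without the third), and without the second CP25 0 h library for the difference and the mean. The authors' p-values gave 0 at 2 h. Median scaling moved the members' median log2 ratio of 2 h to 0 h to -0.078 in vehicle and -0.083 in CP25, from -0.45 and -0.44.

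Directions of effects near 0 turned. EIF4ENIF1 at 0 h became 0.0022 with median centring, the DCP2 difference became -0.0013 with median centring and -0.0063 with quantile normalization, and the DCP1B mean effect became 0.0036 with pseudocount 0.1, 0.0045 with median centring and 0.0071 with quantile normalization. Leaving out 1 library, 25 of 40 member effects changed direction at least once. At 0 h the ranges were EDC3 -0.038 to 0.052, EDC4 -0.060 to 0.029, EIF4ENIF1 -0.043 to 0.032, PNRC1 -0.12 to 0.041. At 2 h the ranges were DCP2 -0.11 to 0.071, DCP1A -0.054 to 0.0067, EDC3 -0.13 to 0.046, EDC4 -0.19 to 0.040, PATL1 -0.12 to 0.075, PNRC1 -0.28 to 0.25. For the difference the ranges were DCP2 -0.070 to 0.12, EDC3 -0.13 to 0.037, EDC4 -0.17 to 0.063, DDX6 -0.20 to 0.0025, PATL1 -0.068 to 0.13, EIF4ENIF1 -0.0060 to 0.069, PNRC1 -0.26 to 0.27. For the mean effect the ranges were DCP2 -0.080 to 0.013, DCP1B -0.031 to 0.025, EDC3 -0.058 to 0.028, EDC4 -0.11 to 0.0084, PATL1 -0.090 to 0.0093, XRN1 -0.021 to 0.040, EIF4ENIF1 -0.0083 to 0.029, PNRC1 -0.15 to 0.11. The DCP1A share difference at 0 h ranged from -3.40 to 0.18 points. The XRN1 difference ranged from 0.20 to 0.32, and its unadjusted p was at or above 0.05 in 8 of 12. Precision is limited by 3 libraries per group, and PNRC1 has the single library with the fewest fragments at 2 h, about 88.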
